A study of Mus musculus with 6 samples.

Results

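H3K56ac peaks were described at 10 mouse genes that encode histone acetyltransferases or chaperones that carry histones to and from DNA. Lysine 56 of histone H3 was profiled in its acetylated form (H3K56ac) by ChIP-seq. The 10 genes were chosen by name: the acetyltransferase genes *Ep300*, *Crebbp*, *Kat2a*, *Kat2b* and *Kat5*, and the histone chaperone genes *Asf1a*, *Asf1b*, *Chaf1a*, *Chaf1b* and *Hira*. Peaks were taken in each gene body and up to 20 kb either side. This gave 20 of the 11106 peaks of the set, around 10 of 21938 protein-coding genes.

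The cells were V6.5, a mouse embryonic stem cell (mESC) line grown on feeder cells with LIF. Lentivirus delivered either a scrambled control hairpin (the Scramble group) or one that targets *Sirt6* (the *Sirt6* KD group), the gene of a sirtuin that removes acetyl groups from this residue. Each group had 2 H3K56ac ChIP libraries and 1 input library, 6 in all. Scramble cells thus carried the virus too, and the knockdown rests on a single *Sirt6* hairpin sequence. The processed file was a single merged list of peak positions that assigned no peak to a library or group and gave no height or read count. Scramble and *Sirt6* KD therefore could not be compared at these genes, and a library that stands apart could not be seen. In the study's own counts, at its enrichment cut-off, both *Sirt6* KD ChIP libraries had more peaks than either Scramble library. The merged set may thus hold peaks called in *Sirt6* KD alone. Which of the peaks described here were called in Scramble cells cannot be told. What follows is where the merged set held a peak, how wide it was, and how far it lay from the start of the gene. A peak's width depends on its signal, on depth and on the merging of calls from several libraries, and it is not a measure of expression.

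p300, encoded by *Ep300*, and CBP, encoded by *Crebbp*, are related acetyltransferases that act as transcriptional co-activators and acetylate H3K56 in animal cells. GCN5 (*Kat2a*) and PCAF (*Kat2b*) are a second related pair that work within the SAGA and ATAC co-activator complexes, and TIP60 (*Kat5*) is the catalytic subunit of a complex known for histone H4 acetylation and DNA repair. ASF1, with the paralogues *Asf1a* and *Asf1b*, holds the H3-H4 dimer and presents it to p300 and CBP for acetylation. CAF-1, whose large and middle subunits are encoded by *Chaf1a* and *Chaf1b*, deposits H3-H4 behind the replication fork, while HIRA deposits the variant H3.3 outside replication.

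The sequences at the 5′ ends of 5 of these genes are shown, picked by the peak found at each start. *Ep300* had the widest promoter peak of the 10 genes and *Asf1a* the narrowest, *Crebbp* and *Kat2a* had none by the definition used, and *Kat2b* is the paralogue of *Kat2a* that had one. Each line gives 280 bases of GRCm38 (mm10), the 250 before the 5′ end of the GENCODE gene record and the first 30 of the gene, read in the direction of the gene. Capitals mark matches on either strand to the GC box GGGCGG, to the CCAAT box, to the core CCGGAA of ETS sites, to the E-box CACGTG or to the TATA box TATAAA.
*Ep300* promoter, chr15:81585101-81585380, plus strand: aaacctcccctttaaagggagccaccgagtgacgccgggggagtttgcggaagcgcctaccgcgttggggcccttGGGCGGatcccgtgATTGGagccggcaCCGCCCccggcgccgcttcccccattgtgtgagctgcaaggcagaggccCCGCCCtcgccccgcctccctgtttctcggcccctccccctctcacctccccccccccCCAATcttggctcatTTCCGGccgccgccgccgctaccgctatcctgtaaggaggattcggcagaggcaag
*Crebbp* promoter, chr16:4213968-4214247, minus strand: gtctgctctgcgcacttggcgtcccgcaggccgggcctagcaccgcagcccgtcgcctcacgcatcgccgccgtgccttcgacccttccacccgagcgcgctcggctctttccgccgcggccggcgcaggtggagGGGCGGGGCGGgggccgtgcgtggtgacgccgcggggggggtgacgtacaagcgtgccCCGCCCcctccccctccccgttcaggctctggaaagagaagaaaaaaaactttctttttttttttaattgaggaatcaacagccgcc
*Kat2a* promoter, chr11:100712436-100712715, minus strand: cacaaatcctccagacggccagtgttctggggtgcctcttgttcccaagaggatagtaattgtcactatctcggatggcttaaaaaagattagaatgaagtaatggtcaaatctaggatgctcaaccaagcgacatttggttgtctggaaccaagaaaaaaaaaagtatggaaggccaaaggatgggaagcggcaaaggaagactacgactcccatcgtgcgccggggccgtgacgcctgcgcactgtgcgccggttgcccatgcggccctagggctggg
*Kat2b* promoter, chr17:53566611-53566890, plus strand: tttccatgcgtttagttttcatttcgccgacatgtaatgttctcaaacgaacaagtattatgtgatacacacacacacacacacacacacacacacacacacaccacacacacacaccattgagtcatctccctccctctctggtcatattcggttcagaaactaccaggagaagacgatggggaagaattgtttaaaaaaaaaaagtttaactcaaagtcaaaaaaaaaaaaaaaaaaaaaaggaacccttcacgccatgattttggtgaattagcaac
*Asf1a* promoter, chr10:53596507-53596786, plus strand: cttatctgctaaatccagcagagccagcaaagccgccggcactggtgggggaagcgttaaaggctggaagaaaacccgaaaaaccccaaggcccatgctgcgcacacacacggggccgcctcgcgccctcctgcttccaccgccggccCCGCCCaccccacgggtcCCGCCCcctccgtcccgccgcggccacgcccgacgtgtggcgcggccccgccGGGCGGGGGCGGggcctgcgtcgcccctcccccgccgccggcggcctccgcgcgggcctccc
The *Ep300* and *Kat2b* stretches lay wholly inside an H3K56ac peak, and the *Crebbp*, *Kat2a* and *Asf1a* stretches held no base of one. GC content was 68.9% for *Ep300*, 67.5% for *Crebbp*, 52.1% for *Kat2a*, 38.2% for *Kat2b* and 75.7% for *Asf1a*. Of these 5, the *Kat2b* stretch was the poorest in GC, contains a CA repeat and was covered. The *Asf1a* stretch was the richest and was not covered. Over the 500 bp either side of its 5′ end, *Kat2b* was 57.1% GC. The 5 genes were picked by their peaks, so this order says nothing about GC content and coverage.

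For *Crebbp* and *Kat2a*, the central 150 bases of the peak nearest to the gene's start are shown as well, in the direction of the gene, since these peaks lay away from the promoter.
*Crebbp* peak centre, chr16:4212232-4212381, minus strand: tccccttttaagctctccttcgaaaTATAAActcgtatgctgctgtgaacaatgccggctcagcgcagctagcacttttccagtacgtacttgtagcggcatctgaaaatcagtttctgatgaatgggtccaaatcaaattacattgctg
*Kat2a* peak centre, chr11:100713953-100714102, minus strand: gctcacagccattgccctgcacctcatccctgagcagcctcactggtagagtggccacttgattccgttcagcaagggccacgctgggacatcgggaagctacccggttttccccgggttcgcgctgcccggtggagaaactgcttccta
The *Crebbp* centre was 44.0% GC and held a TATAAA match in an intron, whereas the *Kat2a* centre was 61.3% GC and lay in the neighbouring gene *Hspb9*. Letters that match a motif describe the sequence and were not measured as binding sites.

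Of the 10 genes, 8 had a promoter peak, that is, a peak whose midpoint lay within 1 kb of a transcription start site (TSS) of any of its transcripts. The Wilson 95% interval of this share was 49.0 to 94.3% and covers counting error only. The background over all protein-coding genes was 33.9% (7430 of 21938). All 5 chaperone genes had a promoter peak, and so did 3 of the 5 acetyltransferase genes, *Ep300*, *Kat2b* and *Kat5*. The remaining genes, *Crebbp* and *Kat2a*, had a peak with a base, but not its midpoint, within 1 kb of a TSS. By that looser definition all 10 genes had a peak, against a background of 35.7%. The 8 promoter midpoints lay at most 365 bp from a TSS, and the nearest ones outside the limit lay 1106 bp (*Crebbp*) and 1563 bp (*Kat2a*) away.

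The promoters of these genes were rich in CpG dinucleotides, and CpG-rich promoters carried peaks more often across the genome. The ratio of observed to expected CpG over the 500 bp before and after the 5′ end exceeded 0.6 in 9 of the 10 genes and ranged from 0.565 (*Kat2a*) to 1.03 (*Crebbp*), and all 10 lay above the median of 0.552 over all genes. Among the 10078 protein-coding genes with a CpG-rich promoter, 57.6% had a promoter peak. Read against that share, 8 of 9 CpG-rich genes among the 10 had a promoter peak, and the gene that did not was *Crebbp*, the gene with the highest ratio of the 10. The part of CpG content in the count of promoter peaks was not tested.

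**Figure D1:**
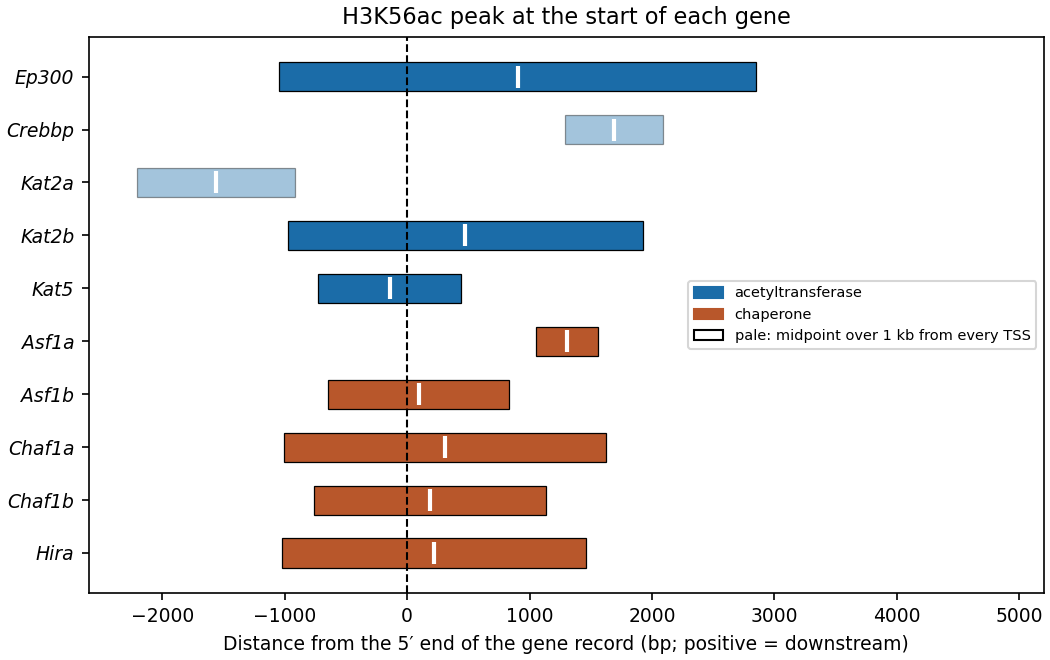
The bars span the H3K56ac peak nearest to the start of each of the 10 genes, in bp from the 5′ end of the gene record (dashed line, downstream to the right), with a white tick at the midpoint. Colour separates acetyltransferase from chaperone genes, and the pale bars of *Crebbp* and *Kat2a* have midpoints over 1 kb from every TSS. The bars of 7 genes cross the dashed line, and those of *Crebbp*, *Asf1a* and *Kat2a* lie to one side of it.

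*Ep300* carried the widest of these peaks. It spanned chr15:81584308-81588201, 3894 bp, and reached from 1043 bp before the 5′ end to 2850 bp past it. By width it ranked 144 among the 6489 promoter peaks of protein-coding genes, at percentile 97.8. It was the single gene of the 10 with a promoter peak of at least 3 kb, against a background of 2.58% of all genes. Its midpoint lay 34 bp from the TSS of the retained-intron transcript Ep300-205, but 857 bp downstream of the TSS of the principal transcript. The starts of *1110025M09Rik*, an uncurated transcript record on the opposite strand, and of *Gm23880*, a predicted microRNA gene, also lay in or within 1 kb of this peak, so its width cannot be given to *Ep300* alone. The peak held 3 of the gene's 10 TSS, 192 CpG dinucleotides and 53.7% GC.

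*Crebbp*, the paralogue of *Ep300*, differed from it in each of these respects. Its nearest peak was 795 bp wide, at chr16:4211910-4212704, and its midpoint fell 1690 bp past the 5′ end, within an intron. The closest TSS, that of transcript Crebbp-205, was 709 bp from the edge of the peak, and none of the gene's 8 TSS was inside it. The peak held 13 CpG dinucleotides and 37.5% GC, whereas the 1-kb stretch around the 5′ end was 75.4% GC, above 99.3% of genes. Set side by side, the peak at *Ep300* was 3894 bp wide and covered the 5′ end, and the peak at *Crebbp* was 795 bp wide and began 1293 bp past it.

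The pair of genes for GCN5 and PCAF also differed. The peak nearest to *Kat2a* was 1292 bp wide, at chr11:100713383-100714674, and ended 918 bp upstream of the 5′ end of the gene. Its midpoint was 106 bp from the nearest TSS of *Hspb9*, a small heat shock protein gene on the opposite strand, and the 5′ end of *Hspb9*, a different TSS, lay 1385 bp upstream of *Kat2a*. That peak counted as a promoter peak of *Hspb9* and not of *Kat2a*, and a merged position cannot assign it to either. No other peak lay within 20 kb of *Kat2a*. *Kat2b*, in contrast, had a promoter peak of 2901 bp at chr17:53565886-53568786, percentile 92.1 of promoter peaks. Its midpoint lay 365 bp downstream of the TSS of the principal transcript, in a coding exon, and the peak held 164 CpG dinucleotides.

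*Kat5* had a promoter peak of ordinary width. It measured 1165 bp, at chr19:5609798-5610962, percentile 49.4 of promoter peaks and close to their median of 1182 bp. The midpoint lay 143 bp upstream of the 5′ end, and 7 of the gene's 12 TSS were inside the peak. It was the single promoter peak of the 8 whose midpoint lay upstream of the 5′ end. Over all genes with a promoter peak, 73.2% had the midpoint downstream of the 5′ end, beside the 7 of 8 found here.

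Among the chaperones, the ASF1 pair separated by width and position. The *Asf1a* peak was the narrowest promoter peak of the 10 genes, 514 bp at chr10:53597806-53598319, percentile 11.2. It counted as a promoter peak through transcript Asf1a-205, whose TSS lay 305 bp from the midpoint and 49 bp from the edge. None of the 6 TSS of the gene was inside the peak, which began 1049 bp downstream of the 5′ end and had its midpoint 1110 bp from the principal TSS. With the 5′ end of the gene record alone, *Asf1a* therefore had no promoter peak. The peak was 40.5% GC and the 1-kb stretch around the 5′ end 60.9%. A TSS of *Mcm9*, a gene of the MCM helicase family that runs in the opposite direction, lay 414 bp from the midpoint, so the *Asf1a* and *Mcm9* starts could not be told apart here. Upstream of this peak, the next one was 1178723 bp away.

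*Asf1b*, the paralogue linked to proliferating cells, had a wider peak directly over its start. It measured 1479 bp, at chr8:83954861-83956339, percentile 59.0, with the midpoint 93 bp downstream of the principal TSS. The peak held 106 CpG dinucleotides and 59.9% GC. The 1-kb stretch around the 5′ end was 60.9% GC, the same as at *Asf1a*. The predicted gene *Gm10644* starts 302 bp upstream on the opposite strand, inside the same peak.

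Both CAF-1 genes had peaks wider than the median promoter peak. The *Chaf1a* peak spanned chr17:56039433-56042061, 2629 bp, percentile 88.6, and its midpoint fell 308 bp past the principal TSS, within an intron. The *Chaf1b* peak spanned chr16:93883137-93885033, 1897 bp, percentile 71.5, with its midpoint 69 bp from the nearest TSS and 184 bp from the principal one. It held 5 of the gene's 7 TSS. Neither gene had another gene's TSS within 1 kb of its promoter peak.

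*Hira* had a peak of 2484 bp at chr16:18876012-18878495, percentile 86.5. Its midpoint lay 17 bp from the nearest TSS and 187 bp downstream of the principal one, and 4 of its 8 TSS were inside. The peak also held the start of *Mrpl40*, a mitochondrial ribosomal protein gene that begins 175 bp upstream on the opposite strand, so its width may belong to both genes and cannot be divided between them. With 7.25 CpG dinucleotides per 100 bp it was the most CpG-dense of the 10 start peaks, ahead of *Asf1b* with 7.17 and far from *Crebbp* with 1.64.

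**Figure D2:**
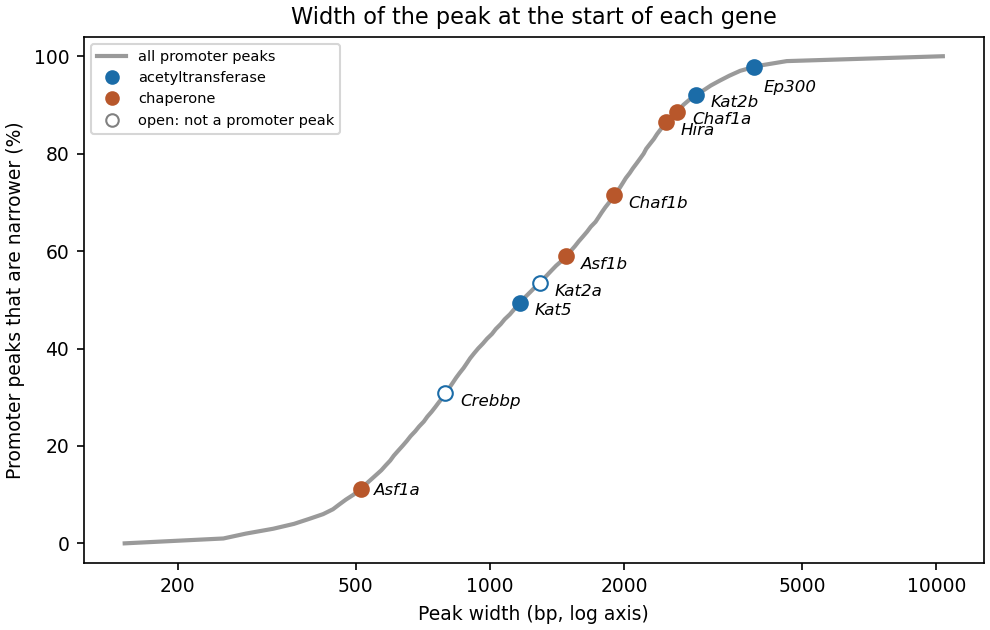
The grey line gives, for each peak width in bp on a log axis, the percentage of promoter peaks of all protein-coding genes that are narrower, and the points place the start peaks of the 10 genes on it. Open points are the peaks of *Crebbp* and *Kat2a*, which are not promoter peaks. *Ep300* and *Kat2b* sit above percentile 90 and *Asf1a* near percentile 11.

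Ordered by width, the 8 promoter peaks ran from *Ep300*, *Kat2b*, *Chaf1a*, *Hira*, *Chaf1b* and *Asf1b* to *Kat5* and *Asf1a*. Their median was 2190.5 bp, and 6 of the 8 were wider than the 1182-bp median over the 6489 promoter peaks, whose quartiles were 711 and 2016 bp. All 8 genes had a CpG-rich promoter, and over genes of that class the median was higher in their GC bins. It was 1479 bp at 55 to 60% GC, 1520 bp at 60 to 65% and 1604 bp at 65 to 70%. Against the median of its own bin, *Asf1b* with 1479 bp was not wider. The part of CpG and GC content in these widths was not tested. The median was 2901 bp for the 3 acetyltransferase genes and 1897 bp for the 5 chaperone genes, with both ranges overlapping (1165 to 3894 bp and 514 to 2629 bp). With a single merged set there is no replicate spread for a width, so whether neighbours in this order differ could not be tested. The midpoints lay at a median of 118 bp from the nearest of a gene's TSS, against 277.5 bp (quartiles 103 and 489 bp) over all genes with a promoter peak. A gene with more annotated TSS can reach a shorter distance. The 8 genes had 3 to 12 TSS each, and genes were not matched for this number, so the medians do not show that these peaks were better centred. Measured from the 5′ end of the gene record, with downstream counted as positive, the median was 262 bp for the 8 genes. It was 348 bp over all genes with a promoter peak. These offsets carry a sign and the distances to the nearest TSS do not, so the gaps between medians cannot be set against each other.

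A peak covered the 5′ end of the gene record at 7 of the 10 genes, against a background of 19.7% of all genes. The 3 uncovered genes were *Crebbp*, *Kat2a* and *Asf1a*. Such a gap was common across the genome, since 43.1% of all genes with a promoter peak had no peak over their 5′ end. Coverage rose and then fell with GC content over all genes. It was 0.911% of genes under 45% GC, 24.3% at 50 to 55% and 26.8% at 65 to 70%. Among genes whose 1-kb stretch was 55 to 60% GC, a peak covered the 5′ end in 29.8%, and this share was 17.0% at 70 to 75% GC and 9.47% at 75% GC and over. The bins of 55 to 60%, 70 to 75% and 75% GC and over held 4484, 772 and 190 genes. The share with a promoter peak moved less over the same bins, from 47.1% to 47.7% and 42.6%. Among genes with a CpG-rich promoter, the class of 9 of the 10 genes, both shares were lower in each GC-richer bin from 55% GC upward. There a peak covered the 5′ end in 42.1% of genes at 55 to 60% GC and in 17.0% and 9.47% of the GC-richest bins, and the share with a promoter peak went from 64.1% to 47.8% and 42.6%. At 45 to 50% GC the classes differed, with 10.1% of all genes but 51.2% of CpG-rich genes covered. *Crebbp* falls in the last of these bins and *Asf1a*, *Asf1b* and *Chaf1b* in the 60 to 65% bin, where 29.6% of all 5′ ends and 33.2% of CpG-rich ones were covered. *Hira* with 69.0% GC and *Ep300* with 66.9% were covered. These GC shares were computed after the positions at *Crebbp* and *Asf1a* had been seen, and the part of GC content in where these peaks lie was not tested.

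**Figure D3:**
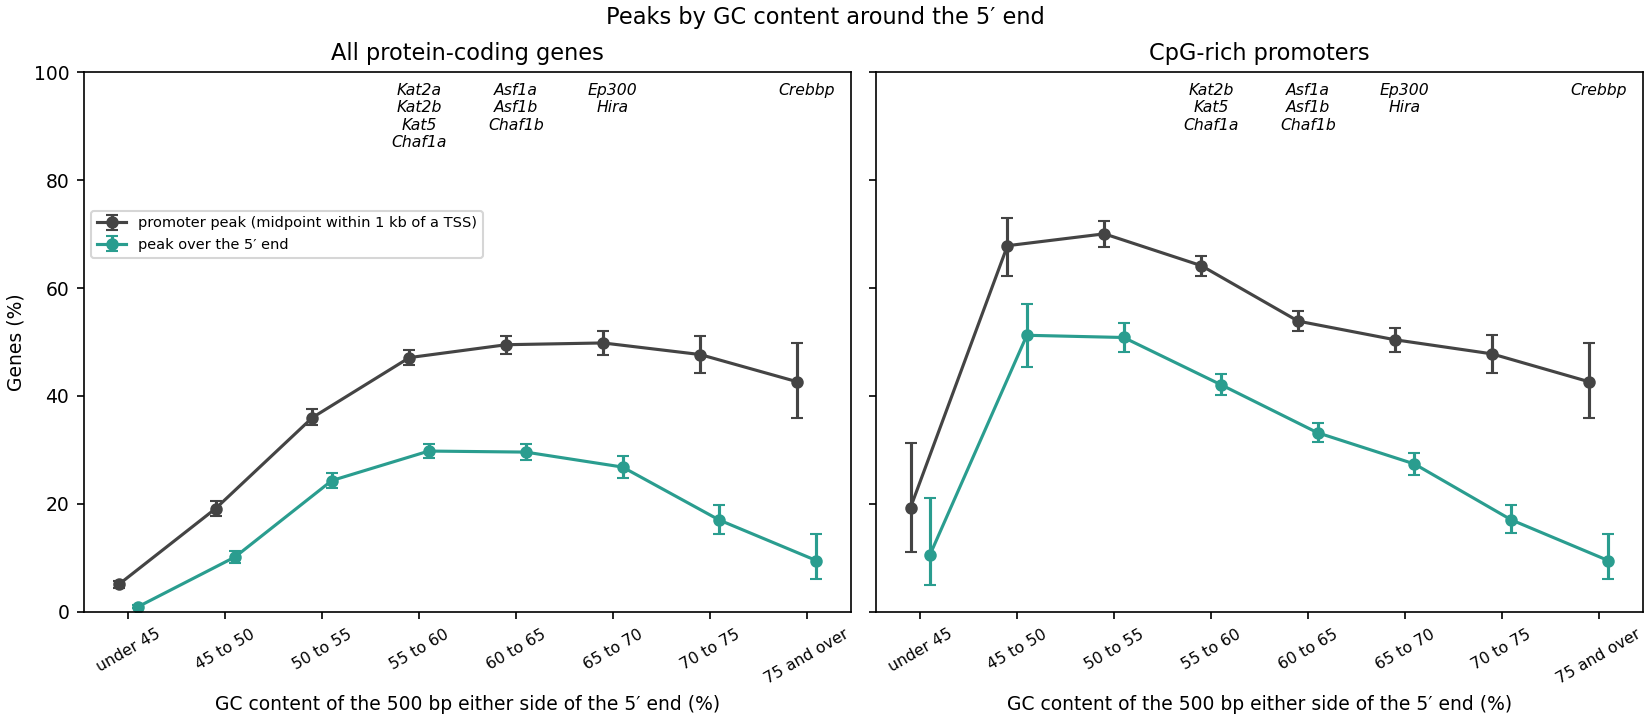
Percentage of protein-coding genes with a promoter peak (dark points) and with a peak over the 5′ end (green points), by GC content in % of the 500 bp either side of the 5′ end, with Wilson 95% intervals, for all genes (left) and genes with a CpG-rich promoter (right). The names show the bin of each of the 10 genes. From 55 to 60% GC to 75% GC and over, the bin of *Crebbp*, the green points go from 29.8% to 9.47% on the left and from 42.1% to 9.47% on the right. On the left, the green point under 45% GC is at 0.911%.

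In the windows of the gene bodies and 20 kb either side, all 10 genes had at least 1 peak, against a background of 52.5% of all genes. Of the 20 peaks, 10 touched a gene body, 3 lay in the upstream and 7 in the downstream flank. The start peaks described above made up 10 of them, 8 promoter peaks and the peaks near *Crebbp* and *Kat2a*. A further 8 lay at the start of another protein-coding gene, and 2 lay at no protein-coding start. *Kat2b* and *Chaf1a* had 4 peaks each, *Ep300*, *Crebbp*, *Kat5* and *Asf1a* had 2, and *Kat2a*, *Asf1b*, *Chaf1b* and *Hira* had 1. The median of 2 equals that of all genes with a promoter peak, so the number of peaks around these genes did not stand out.

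The peaks at other genes' starts belonged to neighbours with varied roles. Downstream of *Ep300* a peak of 1478 bp lay at *L3mbtl2*, a Polycomb-related gene, and downstream of *Crebbp* one of 1535 bp at *Trap1*, a mitochondrial chaperone gene. *Sgo1*, which protects centromeric cohesion, had a peak of 2196 bp past the end of *Kat2b*. *Rnaseh2c*, a subunit gene of ribonuclease H2, had one of 845 bp only 50 bp past the end of *Kat5*. A peak of 569 bp at another start of *Mcm9* lay 19987 bp past the end of *Asf1a*, at the very edge of the window. Around *Chaf1a*, peaks of 1571, 216 and 2073 bp lay at *Sh3gl1*, *Ubxn6* and *Hdgfl2*.

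The peaks at no protein-coding start were both at *Kat2b*. The first was intergenic, 670 bp wide at chr17:53559388-53560057, with its midpoint 7139 bp upstream of the gene and 37.2% of its bases in annotated repeats. The second was 770 bp wide at chr17:53595684-53596453, in an intron 29207 bp downstream of the 5′ end. They made up 10.0% of the 20 peaks, while 34.2% of all peaks in the set lay at no protein-coding start. The windows were laid around protein-coding genes that each had a start peak, and the whole set also holds peaks outside any such window. A lower share in the windows thus follows in part from how they were placed, and the shares cannot be set against each other. A peak in the gene body at no such start was found in 6.11% of all genes. No such peak lay inside the long bodies of *Crebbp* (132670 bp), *Hira* (93273 bp) or *Ep300* (66727 bp).

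**Figure D4:**
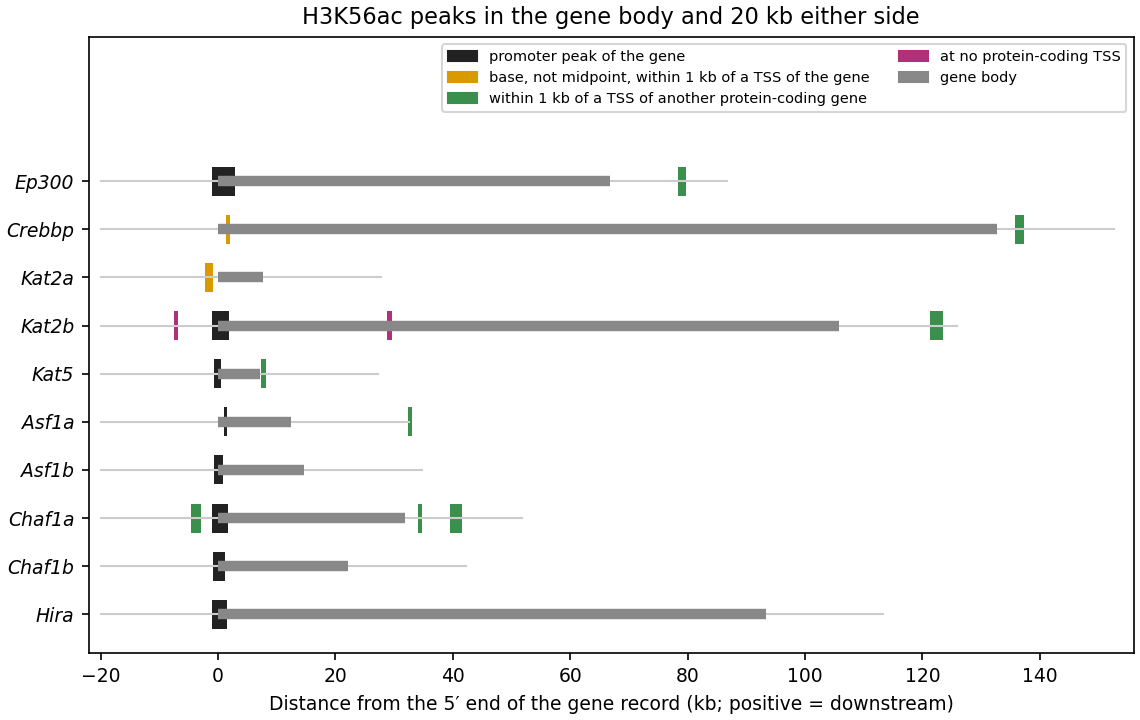
Gene bodies (grey bars) and 20 kb either side (thin lines) of the 10 genes, in kb from the 5′ end of the gene record with downstream to the right. Colours of the 20 peaks separate promoter peaks of the gene from peaks with a base, but not the midpoint, within 1 kb of its TSS. Further colours mark peaks within 1 kb of a TSS of another protein-coding gene and peaks at no protein-coding TSS. Peaks narrower than 0.6 kb are drawn 0.6 kb wide. *Kat2b* and *Chaf1a* hold 4 peaks each, and the peaks at no protein-coding start are both at *Kat2b*.

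Motifs were counted in 300 bases from 250 before to 50 after the first base of each gene, on both strands. The GC box GGGCGG was found in 7 of the 10 promoters, against 43.0% of all promoters, and was absent from *Kat2a*, *Kat2b* and *Kat5*. CCAAT was found in 6, against 39.0%, and CCGGAA in 4 (*Ep300*, *Asf1b*, *Chaf1a* and *Chaf1b*), against 17.5%. The E-box CACGTG was found in *Kat5* and *Chaf1a*, against 7.75%. The paralogues *Ep300* and *Crebbp* both held ATGGCGGC, the YY1 motif core, against 2.55%, in bases beyond or across the end of the stretches printed above. Among the promoters of genes with a promoter peak the shares were 62.2% for GGGCGG, 40.0% for the CCAAT box, 32.6% for the ETS core and 11.1% for the E-box. Each was nearer to the count of the 10 genes than the share of all promoters was, though by little for the CCAAT box and the E-box. GCATGCGC (bound by NRF1), TTTCGCGC and TTTGGCGC (E2F), TATAAA, ATGCAAAT (the octamer) and TGACGTCA (CRE) matched none of the 10 promoters, and they matched 0.351 to 12.6% of all promoters. GC box and CCGGAA matches can share bases with each other and with other GC-rich words.

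To set the 10 genes among their pathway, 93 other genes in 7 lists were read by the same rule. The lists were drawn up by known function with earlier results of these data in view, and 79 of the 93 had a promoter peak (84.9%, Wilson 95% interval 76.3 to 90.8%), against the same background of 33.9%. As many as 75 had a CpG-rich promoter, and the median width of their promoter peaks was 1613 bp.

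Promoter peaks were present at 14 of 17 other acetyltransferase genes. The genes without one were the nuclear receptor co-activators *Ncoa1*, *Ncoa2* and *Ncoa3*, and *Ncoa3* had a peak of 873 bp with its midpoint 1008 bp from a TSS. The widest was at *Naa50*, 3439 bp, and the narrowest at *Clock*, the circadian transcription factor gene, 516 bp. Among subunits of SAGA and ATAC, the complexes of GCN5 and PCAF, 20 of 25 genes had one, from 464 bp at *Atxn7* to 4755 bp at *Taf5l*, and *Tada1*, *Sgf29*, *Taf9b*, *Atxn7l2* and *Mbip* did not. Among subunits of the TIP60 complex, 12 of 16 had one, from 366 bp at *Epc2* to 3353 bp at *Mbtd1*. *Ep400*, *Morf4l1*, *Mrgbp* and *Vps72* did not, although *Morf4l1* had a peak of 4380 bp with its midpoint 1859 bp from a TSS.

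Of the partners of HIRA and CAF-1, 3 of 4 genes had a promoter peak, from 1056 bp at *Ubn1* to 2594 bp at *Rbbp4*, and *Ubn2*, the paralogue of *Ubn1*, did not. Of 23 other H3-H4 chaperone genes, 22 had one, and their median width of 2027.5 bp was the highest of the 7 lists. *Supt6*, a transcription elongation factor gene, had the widest at 5403 bp, *Cdan1* the narrowest at 382 bp, and *Hjurp*, the chaperone gene for the centromeric variant, had none. Both H3.3 genes had one, 2960 bp at *H3f3a* and 779 bp at *H3f3b*. All 6 genes for deacetylases of H3K56 had one, from 500 bp at *Sirt2* to 2069 bp at *Sirt3*, with a median of 1021 bp.

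**Figure D5:**
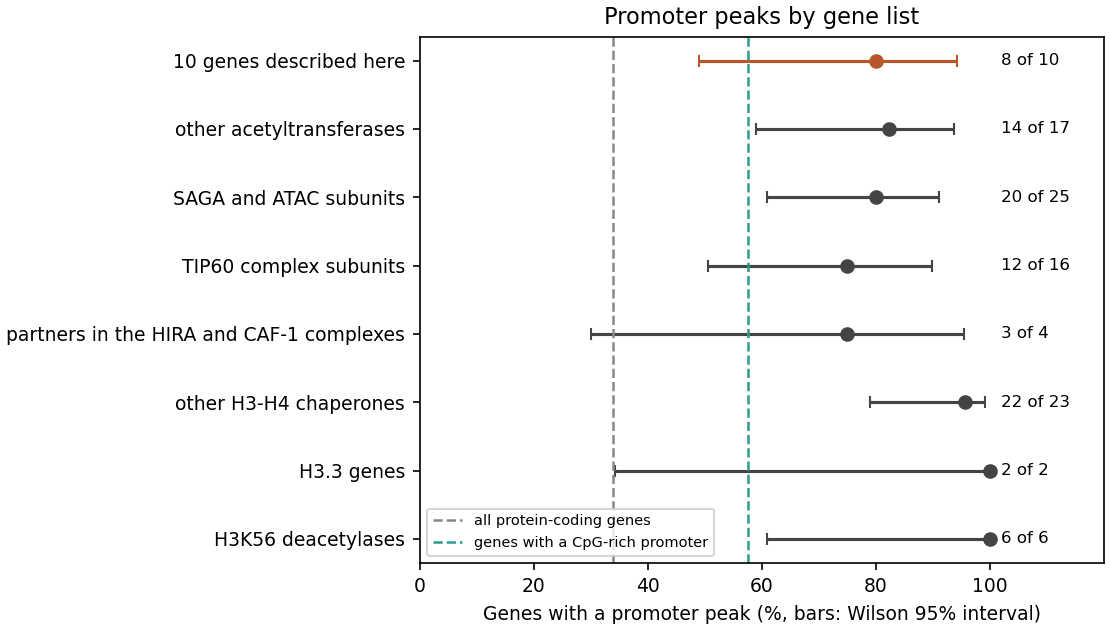
Percentage of genes with a promoter peak among the 10 genes (top) and each of the 7 lists, with Wilson 95% intervals and the counts at the right, against all protein-coding genes and genes with a CpG-rich promoter (dashed lines). Every point lies above both dashed lines, but the intervals of the 10 genes and of several lists reach the line of CpG-rich genes.

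Promoter peaks were also looked up at marker genes of the cell type, chosen after the data had been seen. They were present at 4 of 6 embryonic stem cell genes (*Pou5f1*, *Nanog*, *Klf4* and *Zfp42*, but neither *Sox2* nor *Esrrb*). Of 6 fibroblast genes that feeder cells express, 0 had one. The background over all protein-coding genes was 33.9%, and so few genes chosen in this way cannot establish the cell type or the absence of feeder signal. The file gives no read count behind a peak, and a gene without a peak is one where none was called.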

How the data were processed

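H3K56ac ChIP-seq had been done in Scramble and *Sirt6* KD V6.5 mESCs. Per the study's methods, the authors trimmed reads with Trim Galore, aligned them to mm10 with bowtie at a single reportable location and took out duplicates (Picard). Calls by MACS2 outside the ENCODE blacklist were then merged in GenomicRanges. The deposited values are start and end positions of merged peaks, whose score column was 0 throughout. Merging removes each library's own calls and can widen a peak, and unique alignment can leave repeats uncovered. Read totals per library are listed with the study but were not used here, since the merged positions tie no peak to a library.

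Positions were written counted from 1 and joined to GENCODE M21 genes on GRCm38. Sequences came from that genome, since RefSeq starts of *Ep300*, *Crebbp* and *Hira* differed from the GENCODE ones. The 10 genes and the lists were chosen with earlier results of these data known. Named were the 10 genes, neighbours with a TSS in or within 1 kb of a window peak, and, from each list, the widest, the narrowest and up to 5 genes without a promoter peak. No significance test was run, because the merged file ties no peak to either of the 2 ChIP replicates of a group. Python 3.11.15, numpy 2.4.6, scipy 1.17.1, pysam 0.24.0, samtools 1.23.1 and matplotlib 3.10.9 were used. The peak assignment was tested on simulated data.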

Additional observations from a re-analysis of the deposited data

How the results depend on the processing

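Of 21 alternative settings of the 3 main counts, 19 left the count within 1.5 times of the main one. The counts of 8 of 10 and 79 of 93 genes lie so near their ceilings that a setting which raises them stays in this range by construction. The count of genes with a promoter peak was 8 of 10 in the main definition and 7 to 10 in all 8 alternatives. It was 8 with a limit of 500 bp, 10 with a limit of 3 kb or with any base within 1 kb, and 7 with the 5′ end alone or with peaks wider than the median of all peaks (913.5 bp), where *Asf1a* dropped out. The 20 peaks at the 10 genes became 10 in gene bodies alone, as the flanks were left out by construction, 17 with 10 kb and 26 with 50 kb either side. The median width, 2190.5 bp in the main definition, was 1688 to 2484 bp in its 4 alternatives. Its interval spans all 8 widths (514 to 3894 bp), so an alternative drawn from much the same peaks says nothing about its stability. Among the 93 listed genes 79 had a promoter peak and 45 had a peak over the 5′ end. The count was 71 with the 5′ end alone and 54 with peaks wider than the median of all peaks. The peak over the 5′ end and the use of protein-coding transcripts alone were settings chosen after the data had been seen. For the 93 genes this also held for the 5′ end alone, the wider peaks and GENCODE basic transcripts alone. The share over all genes ran from 19.7 to 36.9% in the same alternatives. No paired analysis was possible because no position is tied to a replicate, and no library could be left out for the same reason.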
